A study of Mus musculus with 2 samples.

Results

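The 6 *Dlx* genes of the mouse were examined as possible targets of their own family member DLX2. Peaks were taken where they lay inside a *Dlx* gene or within 100 kb of its RefSeq extent in build mm10 (GRCm38), which gave 12 of 28061 peaks in replicate 1 and 34 of 62093 peaks in replicate 2. Of these, 7 regions were covered by a peak of each replicate, out of 10921 such shared regions in all. The study itself described fewer peaks in each replicate and fewer common peaks than these deposited lists hold. The regions below are therefore not the study's own set of DLX2 sites. The libraries come from DLX2 CUT&Tag, in which an antibody against DLX2 directs a transposase to cut and tag the DNA around its target, on maxillary process cells of wildtype C57BL/6 embryos at E12.5. The 2 libraries are replicates of 1 group, and no other genotype, stage, treatment or control library was used here. The extraction text of the labels describes sonicated chromatin, whereas the methods of the study describe tagging by transposase. The peaks carry no RNA level, so the labelled tissue could not be checked against its marker genes.

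The *Dlx* genes encode homeodomain transcription factors related to fly Distal-less, and they lie in the genome as linked pairs whose members are transcribed towards each other. Enhancers in the space between the genes of a pair are known to act on both members, and in the forebrain DLX2 is known to bind such an enhancer between *Dlx5* and *Dlx6*. In the embryonic face, nested expression of the pairs along the pharyngeal arches helps to set upper against lower jaw identity. *Dlx1* and *Dlx2* are active in both jaws, while *Dlx5* and *Dlx6*, and farther out *Dlx3* and *Dlx4*, are known mainly from the lower jaw. DLX homeodomains prefer sites with the core TAATT.

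Both lists are long and mostly made of weak peaks, with a median fold enrichment of 4.33 in replicate 1 and 4.12 in replicate 2. Fold enrichment is the signal at the summit of a peak over the local background of the same library, as deposited by the authors. The number of fragments at each summit was inferred from the deposited values, with a median of 6 in replicate 1 and 9 in replicate 2. The lowest local background of the library, inferred in the same way, was 2.84 times as high in replicate 2 (1.1 fragments) as in replicate 1 (0.387 fragments), and replicate 2 was taken to have the higher coverage. Both lists reach down to a −log10 q of 1, the same loose limit. With 1 group of 2 libraries no test between samples was possible, and every value below is a description.

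No peak of either replicate lay between the genes of a pair. The spaces between *Dlx1* and *Dlx2* (9.43 kb), between *Dlx6* and *Dlx5* (9.83 kb) and between *Dlx3* and *Dlx4* (15.2 kb) add up to 34.4 kb. By the rule of 3, which gives an approximate 95% upper limit for a count of 0, this length allows up to 3 peaks, or 87.2 per Mb. This limit covers counting error only. The mean density of the chromosomes concerned was between 9.61 and 14.3 peaks per Mb in replicate 1 and between 22.8 and 33.0 in replicate 2. A density like that of the chromosomes was therefore within what 0 peaks allow, and the absence of peaks says no more than that occupancy was not detected at this depth. In replicate 1 the nearest peak lay 13.8 kb from the space at *Dlx1*-*Dlx2*, 9.92 kb from that at *Dlx5*-*Dlx6* and 23.9 kb from that at *Dlx3*-*Dlx4*. In replicate 2 these distances were 2.41, 0.840 and 3.17 kb, and in each case the nearest peak lay inside a *Dlx* gene.

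**Figure D1:**
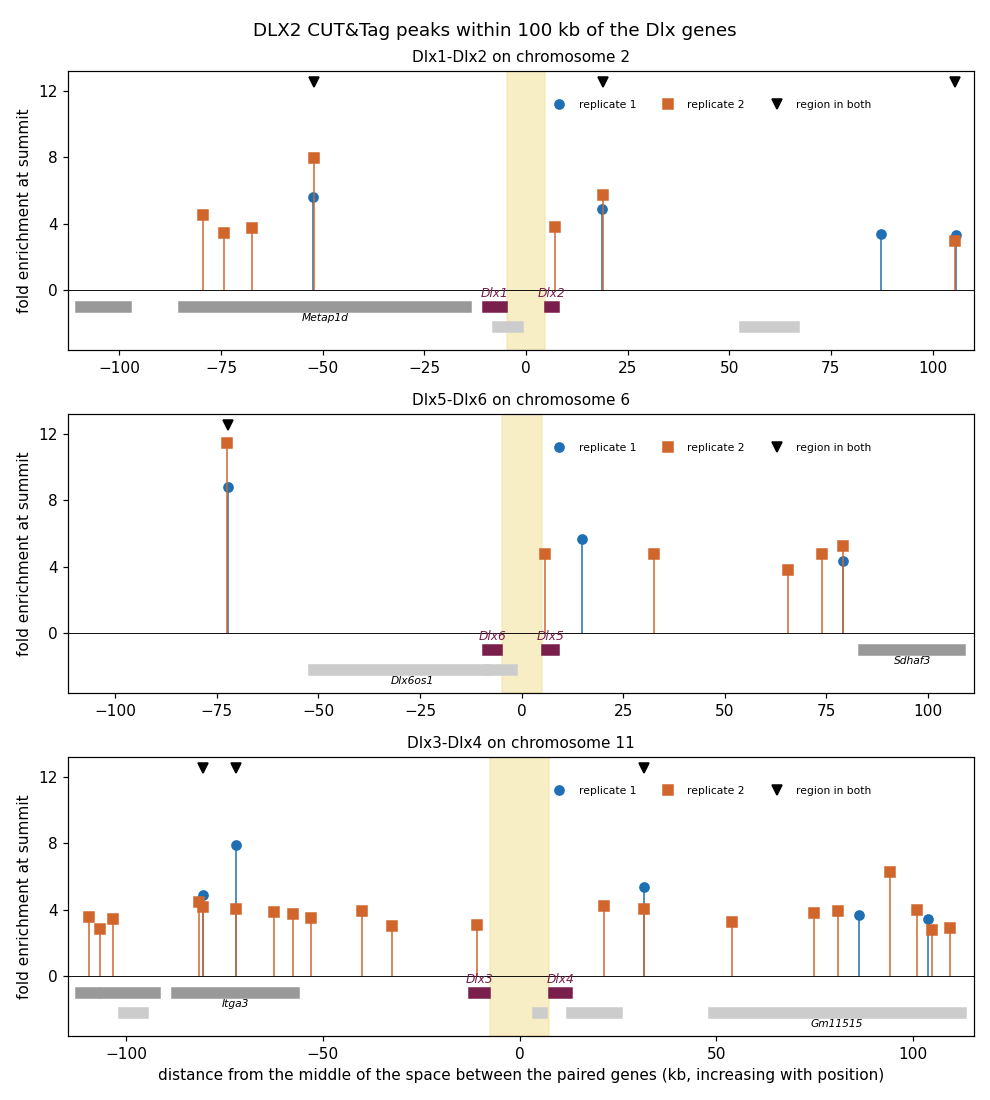
Fold enrichment at the summit of each peak (vertical axis) against the distance from the middle of the space between the paired genes in kb (horizontal axis), for the 3 loci, with replicate 1 as circles, replicate 2 as squares and the 7 regions found in both marked by triangles at a fixed height. *Dlx* genes are dark boxes, other protein-coding genes grey and non-coding genes light grey; the shaded spaces between the paired genes hold 0 peaks.

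Peaks at the genes themselves were seen in replicate 2 only. No *Dlx* gene had a replicate 1 peak within 2 kb of either end (0 of 6, Wilson interval 0 to 39.0%), where 11.1% of the 21779 protein-coding genes had such a peak. In replicate 2, 3 of 6 did (interval 18.8 to 81.2%), against 26.6% of protein-coding genes, and a shared region lay there for 0 of 6, against 3.49%. The same 3 peaks were the ones inside a *Dlx* gene. Counted that way, 0 of 6 genes held a replicate 1 peak against a background of 30.6%, 3 of 6 held a replicate 2 peak against 48.8%, and 0 of 6 held a shared region against 14.6%. The *Dlx* genes are short, with a median length of 4.91 kb against 17.2 kb for all protein-coding genes, and the background was not matched for length. Each interval includes its background, and the intervals take the 6 genes as independent although paired genes are neighbours.

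The 3 genic peaks were at *Dlx2*, *Dlx5* and *Dlx3*. The peak in *Dlx2*, the gene of the profiled factor, lay on chromosome 2 at 71545817 to 71545964, 790 bp inside the end at which the gene starts, and was enriched 3.79-fold on 8 fragments. Of all replicate 2 peaks, 30.5% had a lower fold. *Dlx5* promotes bone formation as well as lower jaw identity. Its peak lay on chromosome 6 at 6878640 to 6878818, 839 bp from the end that faces *Dlx6*. With the pair transcribed towards each other, that is the end where *Dlx5* stops. The peak reached 4.77-fold on 10 fragments. It was the highest of the 3, above 77.8% of the list. The peak in *Dlx3*, a regulator of hair, tooth and bone, lay on chromosome 11 at 95121986 to 95122126. It stood 1869 bp from the end away from *Dlx4* and reached 3.08-fold on 8 fragments, above 3.46% of the list. *Dlx1*, *Dlx4* and *Dlx6* held no peak of either replicate. The antisense transcript *Dlx1as* and the long non-coding *Dlx6os1* (Evf2), which is known to act together with DLX proteins at the *Dlx5*-*Dlx6* enhancers, held none either. The non-coding *Dlx4os* overlaps the side of *Dlx4* that faces away from *Dlx3*. This transcript held a replicate 2 peak at 95154404 to 95154522, 8.11 kb from *Dlx4*, of 4.24-fold on 10 fragments, and no replicate 1 peak. It was the peak nearest to *Dlx4* in either replicate.

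Start site sequences were at hand for 2 of the 6 genes, *Dlx1* and *Dlx2*, and for *Dlx6os1*, which has a start in the space between *Dlx6* and *Dlx5* and another beside *Dlx6*. Windows of *Dlx6os2* and *Dlx4os* were also at hand and are described without their sequence. The 250 bases before the other starts are shown because they are among the sites where direct control of the family by DLX2 would be looked for, and because they differ in DLX core motifs. The *Dlx1* window and the *Dlx6os1* windows lie inside the RefSeq extents of their genes, so the outermost starts of these genes were not covered. They are RefSeq sequences of GRCm38.p6, written on the strand of the transcript. Capitals mark TAATT and CACGTG, the E-box core, on either strand; TAATT reads AATTA on the other strand, and both overlap in TAATTA.
*Dlx1*, chr2:71529195-71529444, plus strand: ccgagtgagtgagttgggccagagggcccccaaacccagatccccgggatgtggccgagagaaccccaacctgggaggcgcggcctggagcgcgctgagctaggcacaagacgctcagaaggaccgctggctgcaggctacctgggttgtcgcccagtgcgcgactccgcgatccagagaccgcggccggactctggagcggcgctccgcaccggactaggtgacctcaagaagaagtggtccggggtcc
*Dlx2*, chr2:71546755-71547004, minus strand: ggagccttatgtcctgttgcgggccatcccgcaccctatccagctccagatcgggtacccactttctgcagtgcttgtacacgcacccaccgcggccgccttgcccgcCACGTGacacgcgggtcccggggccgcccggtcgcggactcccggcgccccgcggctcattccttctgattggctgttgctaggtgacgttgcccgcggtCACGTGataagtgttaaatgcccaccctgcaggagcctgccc
*Dlx6os1* start between *Dlx6* and *Dlx5*, chr6:6869534-6869783, minus strand: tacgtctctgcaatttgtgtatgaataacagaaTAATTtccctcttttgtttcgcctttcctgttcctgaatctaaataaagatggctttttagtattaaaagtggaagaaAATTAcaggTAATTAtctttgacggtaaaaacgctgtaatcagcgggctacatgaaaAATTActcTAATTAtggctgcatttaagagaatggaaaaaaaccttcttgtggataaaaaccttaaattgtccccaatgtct
*Dlx6os1* start beside *Dlx6*, chr6:6861684-6861933, minus strand: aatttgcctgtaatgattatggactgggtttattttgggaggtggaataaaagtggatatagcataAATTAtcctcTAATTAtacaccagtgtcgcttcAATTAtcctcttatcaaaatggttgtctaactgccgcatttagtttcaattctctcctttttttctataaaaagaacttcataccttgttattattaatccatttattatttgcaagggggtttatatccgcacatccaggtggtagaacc

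These windows differed in base composition and in motif content. The *Dlx1* and *Dlx2* windows were GC-rich, at 68.0% and 66.4%, and held 0 copies of TAATT on either strand. The *Dlx6os1* windows were AT-rich, with 33.2% and 34.0% GC, and held 7 and 4 matches to TAATT in 5 and 3 separate stretches. The windows of *Dlx6os2* and *Dlx4os* lay between these, each with 52.4% GC, and held 1 and 0 matches to TAATT. Over 32851 RefSeq windows of the same length the median GC content was 52.4%, and 25% (8223 windows) held TAATT. The E-box core CACGTG stood 2 times in the *Dlx2* window and in 6.02% of all windows. The RUNX core TGTGGT, searched on both strands like the others, was in none of these 6 windows and in 14.0% of all windows.

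No peak of either replicate met any of the 6 windows. Such a meeting was rare everywhere, in 0.679% of all windows for replicate 1, 2.40% for replicate 2 and 0.140% for shared regions, and 0 of 6 is close to that background. The nearest replicate 2 peak lay 0.791 kb from the *Dlx2* window, which is the peak inside *Dlx2* described above. It lay 8.86 kb from the *Dlx6os1* window in the space between the genes and 16.4 kb from the *Dlx1* window. Neither the windows with the DLX core nor those without it met a listed peak.

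At a distance, all 6 *Dlx* genes had a peak in each replicate and a shared region within 100 kb. This is common. A replicate 1 peak lay that close to 83.0% of protein-coding genes, a replicate 2 peak to 91.7% and a shared region to 60.2%. Genes of a pair have nearly the same flanks, so the 6 genes amount to 3 loci and their counts are not independent. In replicate 1, *Dlx1*, *Dlx5* and *Dlx6* had 3 peaks each, *Dlx2* and *Dlx3* had 4 and *Dlx4* had 5, against a median of 3 per protein-coding gene. In replicate 2, *Dlx1*, *Dlx5* and *Dlx6* had 6 peaks, *Dlx2* had 7, *Dlx3* had 17 and *Dlx4* had 18, against a median of 8. The first 4 thus lay below that median, and *Dlx3* and *Dlx4* lay above 88.4% and 90.9% of genes. For shared regions the numbers were 1 for *Dlx5* and *Dlx6*, 2 for *Dlx1* and 3 for *Dlx2*, *Dlx3* and *Dlx4*, against a median of 1.

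**Figure D2:**
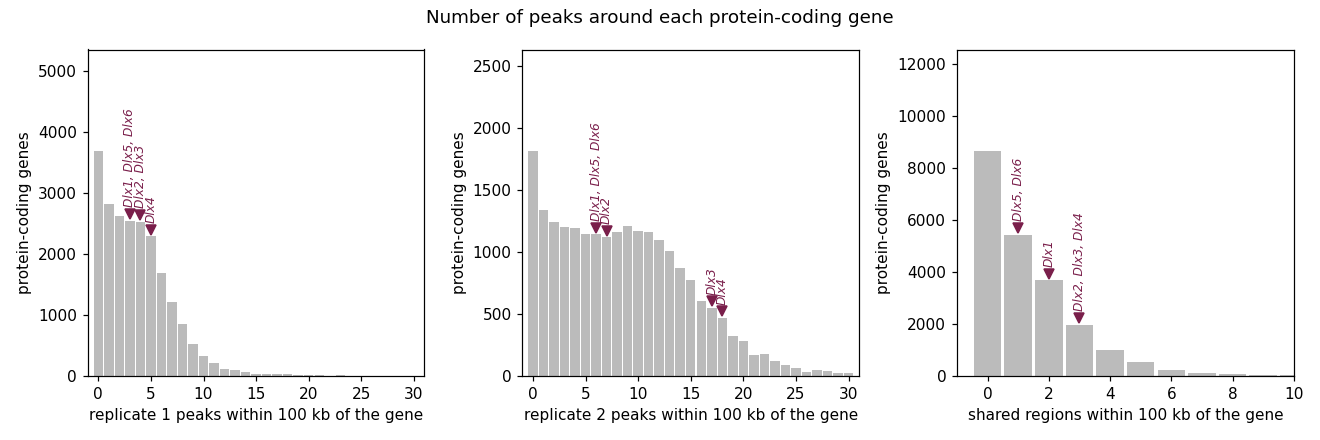
Number of protein-coding genes (vertical axis) by the number of replicate 1 peaks, replicate 2 peaks or shared regions within 100 kb (horizontal axes, cut at 30 or 10), with triangles at the *Dlx* genes. In replicate 2, *Dlx3* and *Dlx4* stand at 17 and 18 peaks, and the other *Dlx* genes at 6 or 7.

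How often a peak near a *Dlx* gene had a counterpart could not be told apart from the whole list in either replicate. Of the replicate 1 peaks 7 of 12, or 58.3% (Wilson interval 32.0 to 80.7%), met a replicate 2 peak, against 38.9% of all replicate 1 peaks. Of the replicate 2 peaks 7 of 34, or 20.6% (interval 10.3 to 36.8%), met a replicate 1 peak, against 17.2% of all. Both intervals include the value of the whole list. The median fold was 4.87 in replicate 1 and 3.87 in replicate 2, above the median of the list in the first and below it in the second.

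Of the 7 shared regions, 4 lay outside annotated genes with a *Dlx* gene as the nearest protein-coding gene, and 3 lay inside another protein-coding gene. The same split over all shared regions was not counted, so these numbers only describe the regions. The 7 regions were uneven in strength and in how well the replicates matched, and none lay closer than 10.7 kb to a *Dlx* gene. Across all shared regions the summits of the replicates were a median of 63 bp apart, and 82.1% were within 150 bp.

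The strongest lay on the *Dlx6* side of the *Dlx5*-*Dlx6* pair, on chromosome 6 at 6800324 to 6800769. It was 62.6 kb from *Dlx6*, 77.0 kb from *Dlx5* and 19.8 kb from *Dlx6os1*, the nearest annotated gene of any kind. Its fold was 8.79 on 13 fragments in replicate 1 and 11.4 on 28 fragments in replicate 2, a mean of 10.1 ± 1.86 (SD, n = 2). The peaks began at the same base in both replicates and their summits were 60 bp apart. Its fold was above 98.7% of the replicate 1 list and 99.9% of the replicate 2 list, and the lower of its folds was above that of 98.5% of all shared regions. Of the 7 shared regions within 100 kb it alone passed a −log10 q of 5 in both replicates, at 9.34 and 20.9.

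Elsewhere around *Dlx5* and *Dlx6* the replicates did not meet. Replicate 1 had a peak 5.65 kb outside *Dlx5*, at 6887718 to 6887885 with a fold of 5.65 on 7 fragments, where replicate 2 listed none. Replicate 2 had the genic *Dlx5* peak and further peaks 23.4, 56.4 and 64.6 kb from *Dlx5*, with folds of 4.76, 3.81 and 4.76, where replicate 1 listed none. A last pair came close, with a replicate 1 peak at 6951995 to 6952103 (fold 4.33) and a replicate 2 peak at 6951684 to 6951968 (fold 5.24) that left 26 bp between them and had summits 112 bp apart. The nearest protein-coding gene to both was *Sdhaf3*, an assembly factor of mitochondrial succinate dehydrogenase. By the rule of 1 shared base this pair was not counted as shared.

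At *Dlx1* and *Dlx2* the shared region with the highest folds lay inside *Metap1d*, which encodes a mitochondrial methionine aminopeptidase and is the next protein-coding gene beside *Dlx1*. It covered 71486202 to 71486671 on chromosome 2, 41.4 kb from *Dlx1*. Its fold was 5.58 on 7 fragments in replicate 1 and 7.95 on 20 fragments in replicate 2, and the summits were 84 bp apart. *Metap1d* held 3 more replicate 2 peaks, with folds of 4.50, 3.43 and 3.73, and no other replicate 1 peak.

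The shared region closest to any *Dlx* gene lay 10.7 kb beyond the start of *Dlx2*, at 71557488 to 71557543, with no annotated gene over it. It was only the edge of both peaks. The replicate 1 peak, at 71557240 to 71557543, had a fold of 4.88 on 6 fragments, and the replicate 2 peak, at 71557488 to 71557832, had a fold of 5.71 on 11 fragments. They had 56 bp in common, or 18.4% and 16.2% of their lengths, and their summits were 453 bp apart, farther than in 98.9% of all shared regions. The value of a shared site beside *Dlx2* therefore rests on the edges of 2 peaks and not on a common summit.

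The third region at this pair was the weakest of the 7. It lay 97.5 kb from *Dlx2*, just inside the limit of 100 kb, and 15 bp were common to a peak of fold 3.34 on 4 fragments in replicate 1 and a peak of fold 2.97 on 6 fragments in replicate 2. Of all shared regions, 0.430% had a lower fold in their weaker replicate. Just outside the limit, 108 kb from *Dlx2* at 71654857 to 71655186, stood a shared region with folds of 7.11 and 7.75, higher in both replicates than the one near *Dlx2*, and with −log10 q of 6.18 and 9.44. The remaining replicate 1 peak, 79.1 kb from *Dlx2*, had a fold of 3.35 on 4 fragments.

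Around *Dlx3* and *Dlx4* on chromosome 11, 2 of the 3 shared regions lay inside *Itga3*, which encodes the integrin α3 subunit of a laminin receptor. The first, at 95060547 to 95060824 and 59.3 kb from *Dlx3*, was enriched 7.87-fold on 13 fragments in replicate 1 and 4.02-fold on 12 in replicate 2, with summits 38 bp apart. It was the region at which the replicates differed most in fold, with a mean of 5.94 ± 2.73 (SD, n = 2). The second, at 95052364 to 95052493, had folds of 4.86 and 4.17 on 7 and 11 fragments. The third lay outside genes 18.1 kb from *Dlx4*, at 95164349 to 95164544, with folds of 5.34 and 4.01 on 9 and 12 fragments and summits 36 bp apart. Each of the 3 had the higher fold in replicate 1, as did the weakest region at *Dlx1*-*Dlx2*. How many of all shared regions were higher in replicate 1 was not counted, so this is not read as a trait of these loci.

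**Figure D3:**
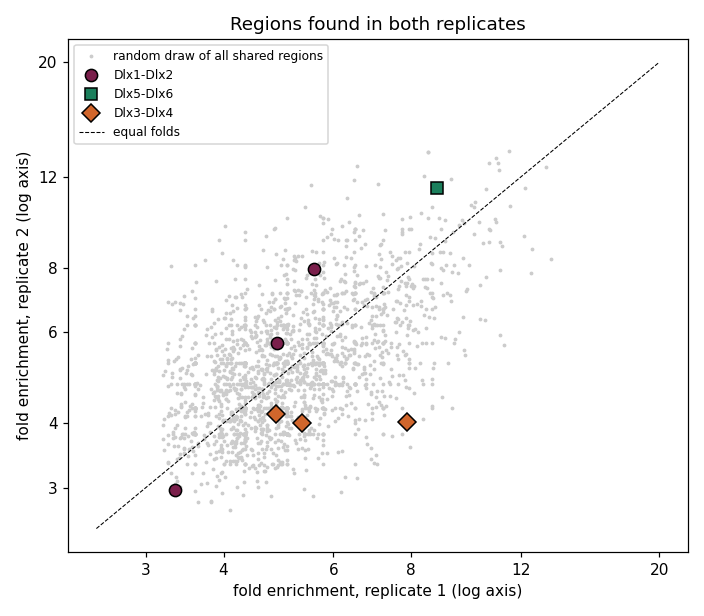
Fold enrichment in replicate 2 (vertical axis, log scale) against replicate 1 (horizontal axis, log scale) for the 7 shared regions within 100 kb of a *Dlx* gene, over a random draw of the 10921 shared regions in grey; the dashed line marks equal folds. The region on the *Dlx6* side stands highest. The 3 at *Dlx3*-*Dlx4* and the weakest at *Dlx1*-*Dlx2* lie below the line, as do some of the regions in grey.

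The *Dlx3*-*Dlx4* flanks also held most of the peaks that were in replicate 2 alone. Within 100 kb of this pair there were 5 replicate 1 peaks and 21 replicate 2 peaks, a ratio of 4.20, while it was 1.75 at *Dlx1*-*Dlx2* (4 and 7 peaks), 2.0 at *Dlx5*-*Dlx6* (3 and 6 peaks) and 2.21 over all peaks. The density at *Dlx3*-*Dlx4* was 22.1 peaks per Mb in replicate 1 and 92.8 in replicate 2, against 14.3 and 33.0 over chromosome 11. At *Dlx1*-*Dlx2* it was 18.3 and 32.0 against 12.4 and 26.7 over chromosome 2, and at *Dlx5*-*Dlx6* 13.7 and 27.4 against 9.61 and 22.8 over chromosome 6. The chromosome values are means over all positions and not over windows around genes. Against windows around all protein-coding genes, *Dlx1*, *Dlx2*, *Dlx5* and *Dlx6* lay below the median in replicate 2. In replicate 1, only *Dlx2* of these lay above it. The replicate 2 peaks at *Dlx3*-*Dlx4* had folds from 2.76 to 6.29, with a median of 3.82, below the median of the list. In this window 5 of them lay inside *Itga3* and 7 inside the non-coding *Gm11515*, which also held 2 replicate 1 peaks and no shared region. The highest fold, 6.29 on 17 fragments at 95226961 to 95227240 in *Gm11515*, had no replicate 1 counterpart. The next highest outside the shared regions were 4.44 on 11 fragments at 95051418 to 95051629 in *Itga3* and the 4.24 in *Dlx4os* given above, also in replicate 2 alone.

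The local background under these peaks was raised as well, in both replicates. At *Dlx3*-*Dlx4* it was from 1.66 to 2.26 times the lowest background of the library in replicate 1, with a median of 1.92, and from 1.42 to 2.31 times in replicate 2, with a median of 1.74. Over all peaks the medians were 1.25 and 1.17. At *Dlx1*-*Dlx2* the medians were 1.20 and 1.21, and at *Dlx5*-*Dlx6* 1.08 and 1.0. Backgrounds as high as the lowest at *Dlx3*-*Dlx4* occurred under 21.1% of all replicate 1 peaks and 29.2% of all replicate 2 peaks. The part of this background in the number of peaks there was not tested.

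**Figure D4:**
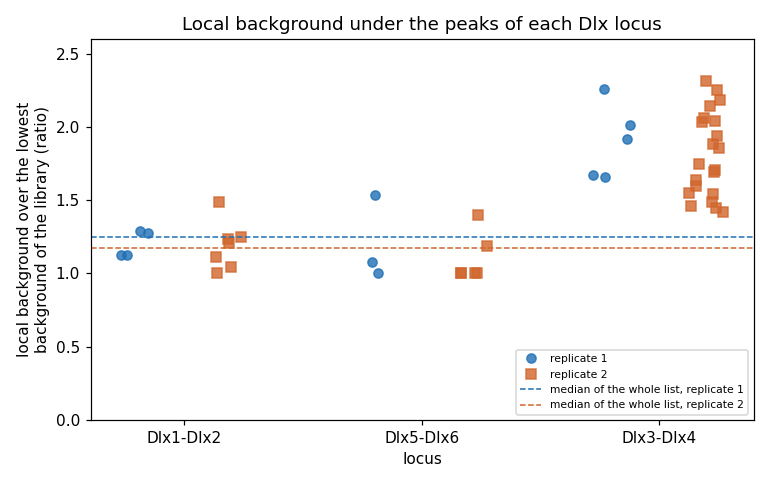
Local background under each peak as a ratio to the lowest background of its library (vertical axis) for the 3 loci (horizontal axis), with replicate 1 as circles, replicate 2 as squares and dashed lines at the medians of the whole lists. Every peak at *Dlx3*-*Dlx4* lies above both lines, from 1.42 to 2.31.

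Genes tied to the DLX factors in development were examined by the same window. In the list for the jaw, 9 of 12 genes had a shared region within 100 kb, against the background of 60.2%, and the median number of shared regions was 1, the same as over all protein-coding genes. Among them were the endothelin genes *Edn1* and *Ednra*, which act upstream of *Dlx5* and *Dlx6* in the lower jaw, the homeobox genes *Gsc*, *Msx1*, *Barx1*, *Alx4* and *Pou3f3*, and the growth factor gene *Bmp4*. *Ednra* and *Gsc* had 4 regions each. The strongest by its lower fold was inside *Ednra*, the receptor gene, at 77670729 to 77670876 of chromosome 8, enriched 8.50-fold and 10.4-fold in the replicates. A region 92.1 kb from *Gsc*, a marker of jaw mesenchyme, had folds of 8.80 and 7.99. *Hand2*, which lies downstream of *Dlx5* and *Dlx6* in the lower jaw, had 0 peaks within 100 kb in either replicate, while *Mef2c* and *Msx2* had 0 peaks in replicate 1 and 6 and 9 in replicate 2.

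In the list for the forebrain, where DLX2 drives the formation of inhibitory neurons, 5 of 6 genes had a shared region within 100 kb, against 60.2% of protein-coding genes, with a median of 2 against 1. They were *Gad1* and *Gad2*, which encode the enzymes of GABA synthesis, the vesicular GABA transporter gene *Slc32a1*, and the LIM homeobox genes *Lhx6* and *Lhx8*. *Lhx8* had 4 regions, and a region 99.8 kb from *Lhx6* had folds of 9.14 on 22 fragments and 8.40 on 39 fragments. No gene of either list had a shared region within 2 kb of an end, against 3.49% of protein-coding genes. Replicate 1 had a peak there for 0 of 12 jaw genes and 2 of 6 forebrain genes, against 11.1%, and replicate 2 for 2 of 12 and 4 of 6, against 26.6%. Both lists are short and were chosen with earlier results of these data known. The backgrounds were not matched for gene length, so no enrichment is read from these counts.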

How the data were processed

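The submitters' processing notes name Trim Galore 0.4.5, Bowtie 1.1.2 and MACS2 2.2.7 with build mm10, whereas the methods of the study name Trim Galore and bowtie2 in other versions; peak settings are not given in the sources used here. The authors listed peaks for each library on its own. The deposited columns used here are the fold enrichment (a ratio to local background), the −log10 p and −log10 q, and the summit position. The deposited score repeats the −log10 q and was not used. Each value of the authors is relative to its own library, so folds depend on its depth. Fragments at a summit and local background were inferred by taking fold as fragments plus 1 over background plus 1 and p as a Poisson upper tail. Only whole numbers of fragments were tried. The best of them gave the deposited −log10 p within 0.001 for 100% of peaks. No read totals were used.

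Gene extents were those of RefSeq for GRCm38.p6, which carry no strand or exons; 340 genes listed before position 3000000 were left out, and 21779 protein-coding genes remained. Chromosome densities were taken from position 3000000 to the last peak. Shared regions needed 1 bp in common. Intervals are 95% Wilson intervals and cover counting error only. The upper limit for 0 peaks between paired genes is not a Wilson interval. The 6 genes, the lists and the motifs were chosen with earlier results of these data known. Named peaks were those met by the other replicate, between paired genes or within 2 kb of a gene end, and the 3 highest of each locus and replicate; the other peaks named were chosen after their values were seen. The list counts cover every gene of each list, of which some are not reported here singly. The overlap and the inference of fragments were tested on simulated data. Tables were handled with pandas 2.3.3 and numpy 2.4.6 under Python 3.11.15, tails with scipy 1.17.1, intervals with statsmodels 0.14.6, and plots with matplotlib 3.10.9. Replicates are numbered in the order of their records. The labels do not say whether they came from separate embryos or litters, so their spread may be technical.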

Additional observations from a re-analysis of the deposited data

How the results depend on the processing

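Of 36 alternatives to the 6 main counts, 20 stayed within 1.5 times the main value. The 0 peaks between paired genes stayed 0 under each alternative run for that count. Those alternatives could only remove peaks, so this outcome was fixed in advance and is no support, although it counts among the 20. Other outcomes among the 20 were fixed as well. All 6 *Dlx* genes already had a shared region. A limit of 200 kb, joining peaks up to 100 bp apart or using 1 replicate alone could not change that count. Replicate 1 had 0 peaks near a gene end, so leaving it out could not change the 3. The number 20 is therefore not read as support. A −log10 q of at least 5 left 2 replicate 1 peaks, 3 replicate 2 peaks, 1 shared region (that on the *Dlx6* side), 2 *Dlx* genes with a shared region and 0 peaks within 2 kb of a gene end. A fold of at least 5 left 5 peaks in each replicate, 2 shared regions and 0 peaks near a gene end. A limit of 50 kb left 4 and 14 peaks and 3 shared regions, none of them for *Dlx5* or *Dlx6*, and a limit of 200 kb raised the replicate 1 peaks to 20. These changes follow from the filters. With 1 replicate alone, the 7 shared regions became 12 or 34 peaks, and the peaks near a gene end were 3 without replicate 1 and 0 without replicate 2. Summits within 150 bp again gave 7 regions, but the region beside *Dlx2* was lost and the pair of peaks toward *Sdhaf3* entered; 50% of each peak in common left 5. Joining peaks up to 100 bp apart, an alternative chosen after seeing the data, gave 8. No paired analysis was possible because there is only 1 group. The peaks within 100 kb rest on few fragments, 4 to 13 in replicate 1 and 6 to 28 in replicate 2. The part of sequencing depth in the counts was not tested. Without a control library, background common to both libraries cannot be told apart from occupancy.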
